A study of Canis lupus familiaris with 12 samples.

Results

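In 2 canine hemangiosarcoma cell lines, 30951 gene identifiers were measured. Of these, 68 reached 10 TPM in HU-HSA-2, 9 of them on 2 to 22 counts, but lay at or near 0 in HU-HSA-3. They were chosen by level alone, as identifiers with a mean of at least 10 TPM over the 6 HU-HSA-2 libraries and a mean under 0.5 TPM over the 6 HU-HSA-3 libraries, and none of the 19 genes in the study's qPCR primer list met that rule. TPM is a transcript level scaled for gene length and library total. The difference between the lines was therefore fixed by the choice of genes and is described without a test, whereas the response to glucose was tested. The rule did not compare the glucose groups, but its HU-HSA-2 mean pools them, and 11 of the 68 genes had a mean under 10 TPM in 1 of the 2 groups.

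Hemangiosarcoma belongs to the vascular sarcomas, and its cells usually keep endothelial surface proteins such as CD31. HU-HSA-2 was established from a splenic tumor of a castrated male toy poodle, and HU-HSA-3 from that of a younger, spayed female flat-coated retriever. Line, tumor, breed, sex and donor age therefore cannot be told apart here. Both were cultured for 48 h in DMEM with 10% fetal bovine serum, with 25 mM glucose or with 0 mM glucose, and each of these 4 groups had 3 mRNA libraries. Genes that are on in a line and silent in another are of use for telling cultures apart and for asking how far a response found in a line can be carried over to the next. Whether a low TPM means a silent gene depends on how many reads a unit of TPM stands for, and this varies with transcript length.

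The deposited tables list genes by identifier and do not pair them with names, and the gene table used here shares 0 of the 30951 identifiers. The roles of the 68 genes are therefore not given, and only a few are named. The libraries held 10406185 to 13405160 expected counts each, and no pair of replicates held identical values. Of the endothelial markers, PECAM1 (CD31) lay between 998 and 1135 TPM in the HU-HSA-2 libraries and between 330 and 441 TPM in the HU-HSA-3 libraries, and KDR (the main VEGF receptor) between 57.8 and 76.7 TPM and between 29.1 and 45.9 TPM. VWF, which encodes von Willebrand factor, was at 0.66 TPM or less in all 12 libraries.

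Few of the genes that HU-HSA-2 expressed were under 0.5 TPM in HU-HSA-3. Of the 8243 genes with a mean of at least 10 TPM in HU-HSA-2, 7177 also reached 10 TPM in HU-HSA-3, 958 lay between 1 and 10 TPM, 40 between 0.5 and 1 TPM, and 68, or 0.825%, under 0.5 TPM. In the opposite direction, 14 of 7549 genes of at least 10 TPM in HU-HSA-3, or 0.185%, were under 0.5 TPM in HU-HSA-2. Levels around the thresholds were continuous. The lowest members in HU-HSA-2 had means of 10.1 and 10.3 TPM, and the nearest genes left out had 9.99 and 9.91 TPM. On the side of HU-HSA-3, the highest members had means of 0.487 and 0.425 TPM, and the nearest genes left out had 0.5 and 0.503 TPM. TPM is scaled within each library, which touches every level set side by side across the lines. In bulk RNA fewer expressing cells and less RNA per cell cannot be told apart.

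**Figure D1:**
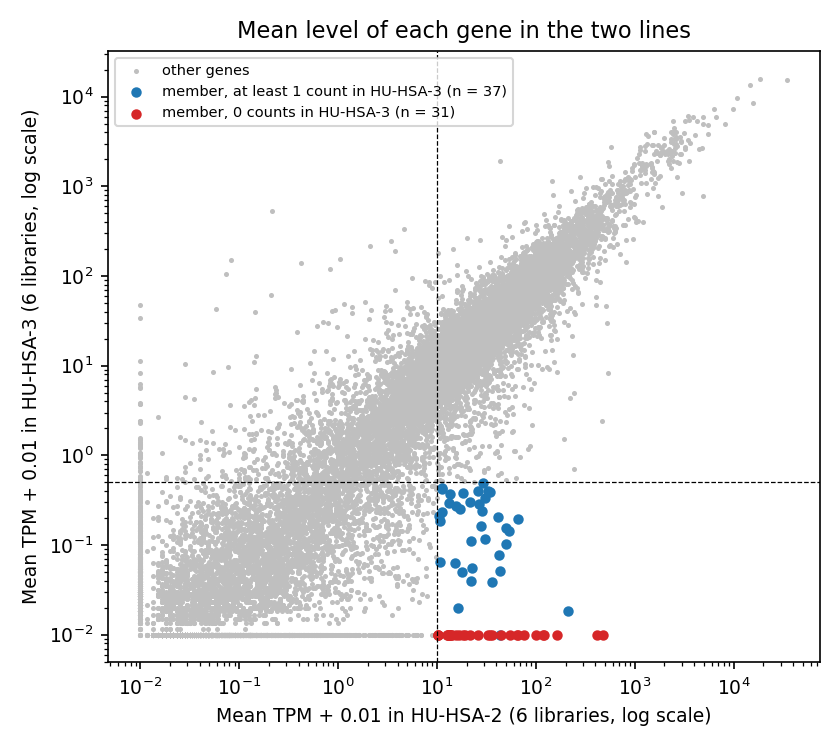
Mean TPM + 0.01 of every gene with a count, in HU-HSA-2 (x axis) against HU-HSA-3 (y axis), both on log scales, each point being the mean of 6 libraries and the dashed lines the thresholds of 10 and 0.5 TPM. The 31 members with 0 counts in HU-HSA-3 (red) lie along the bottom edge. Of the other 37 (blue), 1 has a TPM of 0 and lies there too, and the rest spread upward to the line at 0.5 TPM.

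In HU-HSA-3, 31 of the 68 genes had 0 counts in all 6 libraries. Of the other 37 genes, 11 had 1 to 3 counts summed over the 6 libraries and 26 had more, up to 98, and 17 had a count in every HU-HSA-3 library. In a single HU-HSA-3 library no member exceeded 22 counts or 1.1 TPM. All 68 genes together gave 91 to 139 counts per HU-HSA-3 library, against 27260 to 35170 per HU-HSA-2 library.

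The depth allowed a close limit on many of the zeros. With 67677683 counts over the 6 HU-HSA-3 libraries, the limit that a count of 0 allows, taken as 3 counts over the 6 libraries, was 0.0443 CPM (counts scaled to the library total). The 23 genes with 0 counts in HU-HSA-3 that had enough counts in HU-HSA-2 for the test of glucose held 61.9 to 14589 counts over the 6 HU-HSA-2 libraries (median 2424). Their levels were at least 19.1-fold to at least 4510-fold lower in HU-HSA-3 (median of these bounds 749). The largest bound belonged to ENSCAFG00000012219, which was picked out after its values were seen. It had 2111, 2874 and 2334 counts in the libraries at 25 mM glucose and 2279, 2594 and 2397 at 0 mM in HU-HSA-2, and no count in any HU-HSA-3 library. Its deposited level in HU-HSA-2 ran from 57.5 to 75.1 TPM. By raw counts, 19 genes had at least 1000 counts over the HU-HSA-2 libraries and 0 in HU-HSA-3, 18 of them among the 68, and 4 genes showed the opposite.

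The remaining tested genes were low rather than unseen in HU-HSA-3. For these 36 genes the ratio of pooled CPM ran from 26.5 to 22600 (median 152). The highest ratio came from the member with the most counts, with 24391 in HU-HSA-2 and only 1 over the HU-HSA-3 libraries. This ratio rests on that 1 count. The gene's expected counts were not whole in 5 libraries, so its level may include reads of another gene. The bounds given for the zeros cover counting error only. Bounds and ratios alike belong to genes chosen by this difference, so they describe it and do not test it. The genes that were unseen and those that were low had about as many counts in HU-HSA-2, with medians of 2424 and 1950.5 over the 6 libraries.

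Within HU-HSA-2 the 68 genes were spread over a wide range of levels. Their means ran from 10.1 to 475 TPM with a median of 24.4 TPM, above 68.9% of the genes with a mean over 0. In all, 6 genes reached 100 TPM and 29 stayed under 20 TPM, and 48 had at least 10 TPM in each of the 6 libraries. Together they made up 0.304% ± 0.0145 (SD, n = 3) of the TPM at 25 mM glucose and 0.344% ± 0.0338 (SD, n = 3) at 0 mM. As a share of the counts the values were 0.255% ± 0.00161 and 0.258% ± 0.00441 (SD, n = 3 each), so the group means lay closer together in counts than in TPM, and the SD was the larger one at 0 mM on both scales.

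A part of the list rested on very few reads. In 9 of the 68 genes, 2 to 22 counts over the 6 HU-HSA-2 libraries gave means of 10.1 to 120 TPM, because 1 TPM stood for only 0.012 to 0.274 counts in a library. Among the members that were tested the median was 16.5 counts per TPM, and among all genes of at least 10 TPM it was 16.1. These 9 genes held 8.09% of the members' summed TPM and 0.0331% of their counts, and 8 of them had 0 counts in HU-HSA-3, which at such counts does not show a difference between the lines. The highest of the 9, with a mean of 120 TPM, had 0, 2 and 2 counts at 25 mM and 0, 1 and 4 at 0 mM glucose. Its TPM values in the same libraries were 0, 166 and 181 and then 0, 66.1 and 306, so that 1 count alone gave 66.1 TPM. With at least 10 counts required in every HU-HSA-2 library, 58 of the 68 genes remained.

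**Figure D2:**
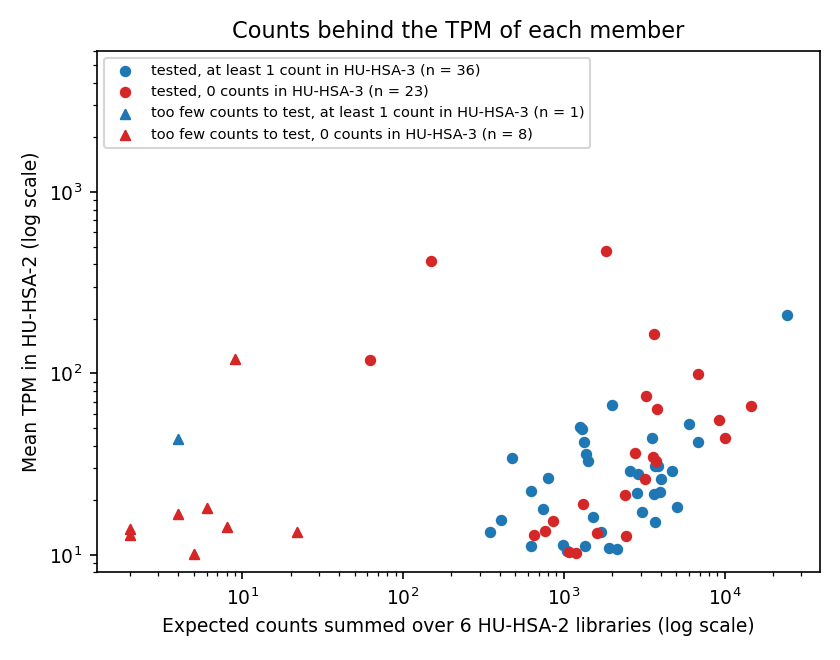
Mean TPM in HU-HSA-2 (y axis) against the expected counts summed over the 6 HU-HSA-2 libraries (x axis) for each of the 68 members, both on log scales. Triangles mark the 9 genes with too few counts to test, which reach 10.1 to 120 TPM with 2 to 22 counts, and red marks 0 counts in HU-HSA-3.

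The pair of members with the highest TPM also had few counts per TPM, with 0.645 for ENSCAFG00000024307 and 0.0597 for ENSCAFG00000002706. ENSCAFG00000024307 had the highest mean, 475 TPM, from 1838 counts, and its TMM-normalized CPM in HU-HSA-2 was 18.9, 27.9 and 13.6 at 25 mM and 11.8, 35.3 and 39.1 at 0 mM glucose. The groups overlapped, and the spread at 0 mM was the wider one. Its expected count was not whole in any of the 6 HU-HSA-2 libraries, which occurs where reads are shared with another gene, so its level may include those of a related sequence. Its log2 fold change of 0.51 (standard error, SE, 0.33, edgeR adjusted p = 0.342 over all genes tested) did not pass the threshold, and the call depended on the filter and on single libraries. With no filter on low counts the value was 0.51 with an adjusted p of 3.12e-05 in edgeR. That fit also took the edgeR adjusted p of ENSCAFG00000010167 from 7.82e-09 to 5.69e-100 at nearly the same fold change. For ENSCAFG00000002706 it went from 0.873 to 0.895. In the filtered edgeR test the value of ENSCAFG00000024307 was 0.87 with an adjusted p of 0.0233 without 0 mM replicate 1, and 0.82 (adjusted p = 0.212) without 25 mM replicate 2. It was 0.23 (edgeR adjusted p = 0.699) without 0 mM replicate 3, 0.30 (adjusted p = 0.665) without 25 mM replicate 3 and 0.34 (adjusted p = 0.525) without 0 mM replicate 2. ENSCAFG00000002706 followed with 418 TPM from 149.88 counts, and its CPM was 2.73, 1.85 and 1.87 at 25 mM and 2.54, 1.35 and 2.13 at 0 mM. The groups overlapped, with a log2 fold change of -0.10 (SE 0.32, edgeR adjusted p = 0.873). Leaving out 1 library gave values from -0.299 to 0.122, so the sign was not stable. Both genes had 0 counts in HU-HSA-3, and together they held 27.5% of the members' summed TPM. Counts that were not whole in at least 1 library were found in 8 of the 68 genes, or 11.8%, against 5.88% of all genes of at least 10 TPM in HU-HSA-2.

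To ask how these genes responded to glucose starvation in HU-HSA-2, 0 mM was compared with 25 mM glucose within this line over all genes. Of the 59 members with enough counts, 19 changed, 9 higher and 10 lower at 0 mM. The call was a p under 0.05 in the quasi-likelihood test of edgeR, after Benjamini-Hochberg adjustment over all 12035 genes tested. The 19 are 32.2% of the members tested, where 13.2% of all tested genes and 15.9% of those of at least 10 TPM in HU-HSA-2 were called. Calls were higher at 0 mM for 7.45% and lower for 5.7% of all tested genes, and for 8.52% and 7.39% of those of at least 10 TPM. Of the 11 genes under 10 TPM in 1 glucose group, 4 were tested and 1 was called. Without these 11, 18 of 55 tested members changed, or 32.7%, 9 in each direction, a choice made after seeing the data. By upper-quartile normalization the split among the members was 12 higher and 8 lower. The number of members called fell to 10 without 25 mM replicate 2 and to 12 without 25 mM replicate 3, with 7.59% and 7.43% of all tested genes called. With all 12 libraries in a single fit it was also 10, where 8.97% of all tested genes were called.

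The changes of the members had no common direction. Their median log2 fold change was 0.00, and 29 of 59 were below 0, against a median of -0.01 over all tested genes. The median absolute log2 fold change was 0.20 for the members, 0.14 for all tested genes and 0.11 for the genes of at least 10 TPM. Their spread between replicates, as the SD of log2 CPM within groups, had a median of 0.116, against 0.112 and 0.0884. In 30 of the 59 members the groups did not overlap, where this held for 32.9% of all tested genes and 36.3% of those of at least 10 TPM.

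**Figure D3:**
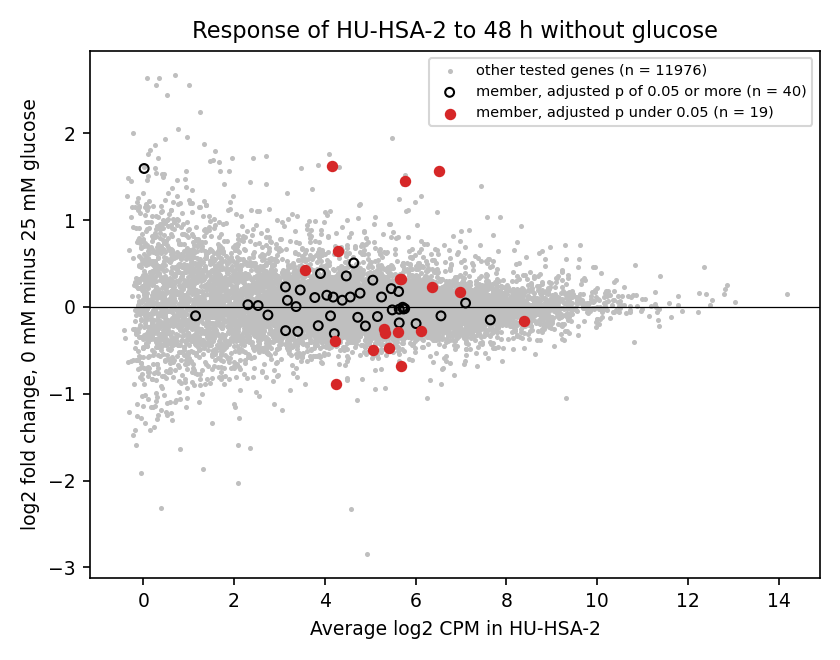
Log2 fold change of 0 mM against 25 mM glucose in HU-HSA-2 (y axis) against the average log2 CPM (x axis) for all tested genes, with the 59 tested members as large symbols. The 19 members past the threshold are red and lie on both sides of 0, with 3 of them above 1.

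The strongest changes were rises. Beyond 1 on the log2 scale, 3 members changed and all of them rose, which is 5.08% of those tested, whereas 0.897% of all tested genes and 0.292% of those of at least 10 TPM were called with a change of that size. ENSCAFG00000019348 had CPM values of 8.47, 8.80 and 8.31 at 25 mM and 26.6, 29.7 and 22.5 at 0 mM glucose, so every starved library lay well above every library with glucose. Its log2 fold change of 1.62 (SE 0.13, edgeR adjusted p = 1.9e-06) ranked 27 among the rises of all tested genes, and 1 among those of at least 10 TPM in HU-HSA-2. It had 2 counts over the 6 HU-HSA-3 libraries. ENSCAFG00000010167 had 46.2, 44.0 and 48.3 CPM at 25 mM and 142, 139 and 128 CPM at 0 mM, again with no overlap. The log2 fold change reached 1.56 (SE 0.06, edgeR adjusted p = 7.82e-09). It was low but present in all HU-HSA-3 libraries, with 3, 9 and 6 counts at 25 mM and 3, 3 and 7 at 0 mM. The third gene of this kind had 28.7, 27.6 and 30.7 CPM at 25 mM and 80.4, 82.6 and 73.7 CPM at 0 mM, a log2 fold change of 1.45 without overlap.

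The falls were smaller. ENSCAFG00000012651 went from 23.1, 26.3 and 24.8 CPM at 25 mM to 12.4, 15.4 and 12.3 CPM at 0 mM glucose. The groups were clearly apart, with a log2 fold change of -0.88 (SE 0.11, edgeR adjusted p = 0.000178), and HU-HSA-3 had 1 count in all. ENSCAFG00000006239 had 66.5, 64.9 and 58.8 CPM at 25 mM and 39.3, 39.7 and 39.5 CPM at 0 mM. The starved libraries were nearly equal, and the log2 fold change was -0.68 (SE 0.07, edgeR adjusted p = 2.75e-05). The log2 fold changes of the 9 rising members ran from 0.18 to 1.62 with a median of 0.43, and those of the 10 falling members from -0.88 to -0.16 with a median of -0.35. In all 19 the groups did not overlap, but this was not counted over all called genes and adds no support to the calls. Under each of the 15 alternatives tried, 8 of the 19 were also past the threshold, 4 rising and 4 falling, among them the 4 genes just described. How many of all called genes passed every alternative was not counted, so this number has no background to be read against.

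**Figure D4:**
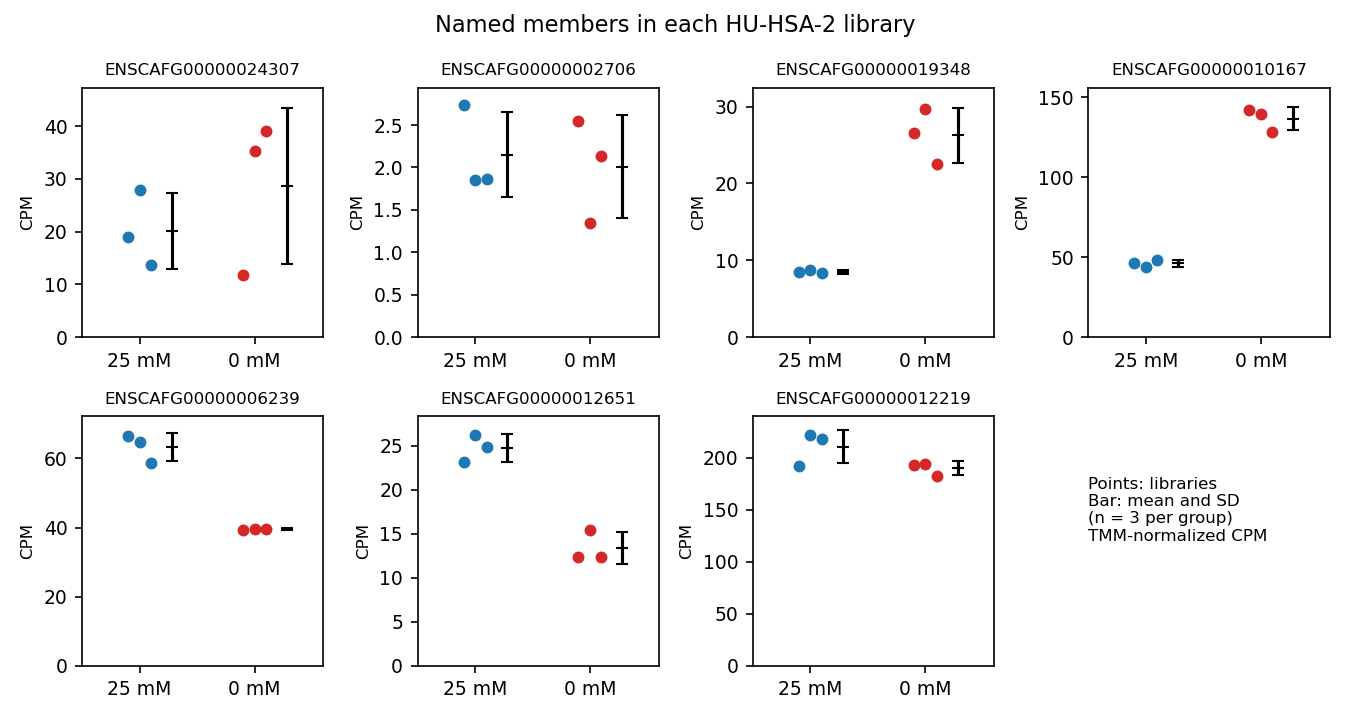
TMM-normalized CPM (y axis, from 0) of 7 members in each HU-HSA-2 library at 25 mM (blue) and 0 mM (red) glucose, with the mean and SD of 3 libraries per group. ENSCAFG00000019348 and ENSCAFG00000010167 are higher and ENSCAFG00000006239 and ENSCAFG00000012651 lower in all 3 starved libraries, while the groups of the other 3 genes overlap.

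Most members not past the threshold moved little, as that choice favors. Of these 40 tested members, 32 had a log2 fold change within 0.25 of 0, a number not counted over all genes. The range was -0.31 to 1.6, the upper end being a gene with 61.9 counts over the 6 libraries. It had 10, 0 and 4 counts at 25 mM and 12, 16.85 and 19 at 0 mM, so most of its counts came from the group where it was high. Its groups did not overlap in CPM. ENSCAFG00000012219, the member with most counts among those unseen in HU-HSA-3, had 192, 222 and 218 CPM at 25 mM and 193, 194 and 183 CPM at 0 mM. These ranges touched, and the log2 fold change was -0.15 (SE 0.06, edgeR adjusted p = 0.124). Without 25 mM replicate 1, the lowest of its group, the value was -0.21 with an adjusted p of 0.0397 in the same edgeR test. Of the 23 tested genes with 0 counts in HU-HSA-3, 4 changed in HU-HSA-2, 3 higher and 1 lower. This is 17.4%, near the 13.2% of all tested genes and the 15.9% of those of at least 10 TPM. Of the 36 with a count there, 15 changed, or 41.7%, 6 higher and 9 lower. Whether these shares differ was not tested.

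In HU-HSA-3 the same question could hardly be asked. Only 2 of the 68 genes had enough counts to be tested there, with 98 and 55 counts over the 6 libraries, and their log2 fold changes were -0.31 and 0.67 (edgeR adjusted p = 0.63 and 0.484, where 5.65% of all tested genes were called). The second of them was the third of the members that rose beyond 1 in HU-HSA-2, and it had 2, 8 and 11 counts at 25 mM and 6, 14 and 14 at 0 mM in HU-HSA-3. These ranges overlap, and whether the response differed between the lines was not tested.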

How the data were processed

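The data were mRNA libraries of both cell lines, 3 per group, with 10406185 to 13405160 expected counts each. The submitters' processing notes name STAR, RSEM and the build CanFam3.1. The versions of both tools, the annotation release and the strand setting are not given in the sources used here. The authors deposited TPM values next to expected counts, the latter without normalization and with fractions where genes share reads. Per the labels edgeR 3.42.0 was also used, and no comparison of the authors is in the files used.

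Members were taken from the means of the deposited TPM. Expected counts were rounded and tested in R 4.3.3 with edgeR 4.0.16 (filterByExpr, TMM, quasi-likelihood test, Benjamini-Hochberg adjustment, threshold 0.05) on the 6 HU-HSA-2 libraries. The standard error is the unshrunk log2 fold change over the square root of F. log2 CPM for the spread used a prior of 0.5, and a count was called whole within 1e-06. The test was tried on simulated counts. Alternatives included limma 3.58.1 on log2(TPM + 1) and log2(TPM + 0.1), and DESeq2 1.42.0. Cultures were made in triplicate, and p-values measure the spread between these libraries. The members, the lists and the tests were chosen with earlier results of these data known. Without gene names, the planned lists by function and cell type could not be applied, and no sequences or coordinates are shown. The rule for names gave the 2 members of highest TPM and, among those past the threshold without overlap, the 2 that rose and the 2 that fell most.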

Additional observations from a re-analysis of the deposited data

How the results depend on the processing

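The number of members (68) followed the thresholds. It was 43 with HU-HSA-3 under 0.1 TPM, 39 with HU-HSA-2 at 20 TPM or more, 148 with HU-HSA-2 at 5 TPM or more, and 36 when every library had to meet the rule. Means at 25 mM alone gave 77 genes, 59 of them among the 68, and means at 0 mM alone gave 80, with 63 of the 68. Leaving out 1 library gave 68 to 73. The number of members that changed in HU-HSA-2 (19) was 10 with limma on log2(TPM + 1), 10 with limma on log2(TPM + 0.1), 10 with all 12 libraries in a single fit, and 10 to 15 when each library was left out in turn. It was 23 without a filter on low counts, 21 with at least 10 counts in every library and 20 by upper-quartile normalization. The number of all genes that changed (1583) was 870 and 845 with limma, 907 to 1582 without 1 library, and 2086, 1606 and 1617 under the last 3 settings just given. The cause was not tested. The members' share of calls stayed above that of all tested genes in all 15 alternatives, most narrowly with all 12 libraries (16.9% against 8.97%). The share of genes of at least 10 TPM, 15.9% in the main fit, was not computed under the alternatives. These fits reuse the same libraries and are not independent of each other. The replicate number as a block gave 15 members and 1452 genes. The labels do not say whether same-numbered libraries are paired, and the correlations of their deviations across genes were 0.001, 0.078 and -0.021. The summed TPM of the members (3045 at 25 mM, 3443 at 0 mM) was 2812 and 2916 for the 58 genes with at least 10 counts in every library, a choice made after seeing the data, and 2529 and 2601 as CPM, another unit. Of 105 values of the 7 named genes, 100 had the same direction and call. ENSCAFG00000002706 reversed to 0.122 without 0 mM replicate 2 and to 0.102 without 25 mM replicate 1 (range without 1 library -0.299 to 0.122), and 3 values came past the threshold, 2 of ENSCAFG00000024307 (with no filter on low counts and without 0 mM replicate 1), whose adjusted p in edgeR, DESeq2 and limma ran from 3.12e-05 to 0.723, and 1 of ENSCAFG00000012219 (0.0397 to 0.378).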

Other observations

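Some members lay close together in the numbering of their identifiers, which was noticed in the data and is not a position on a chromosome. In a stretch of 52 identifiers with a count, chosen to begin and end with a member, 6 of the 68 genes were found, and all 6 had 0 counts in every HU-HSA-3 library. They held 1083 to 6845 counts each over the HU-HSA-2 libraries, 21248 in all, with means of 10.3 to 99.7 TPM. The 27 other genes of at least 10 TPM in HU-HSA-2 with identifiers between these members had means of 5.41 to 442 TPM in HU-HSA-3. A further gene in the stretch with at least 100 counts in HU-HSA-2 but under 10 TPM also had 0 counts in HU-HSA-3. The glucose responses of the 6 genes in HU-HSA-2 ran from -0.10 to 0.39 on the log2 scale, with 1 of them past the threshold, or 16.7%, near the 13.2% of all tested genes. Gene coordinates were not used here, so whether these genes are neighbors was not examined.

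In 2 of the 68 genes a library had a count and yet a TPM of 0. Both belonged to the 9 genes with too few counts to test.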
